A study of Saccharomyces cerevisiae with 88 samples.

Results

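SUTs, the stable unannotated transcripts of budding yeast, are non-coding RNAs that were mapped in cells with an intact nuclear exosome and lie outside the annotated genes, often antisense to one or upstream of one on the other strand. They were taken as the features of that class in the deposited annotation, which holds 847 SUTs among 12454 features, and all 847 were followed in every data set. Of these, 484 lay over at least 50% of their length opposite a single protein-coding feature and are called antisense SUTs, and 363 did not and are called other SUTs. The closest overlaps on the 2 sides of that limit were 50.4% and 48.8%.

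Nab3 is an RNA-binding protein of the Nrd1-Nab3-Sen1 complex, which binds short motifs in nascent RNA, ends transcription by Pol II without cleavage and polyadenylation, and hands the RNA to the exosome. CUTs, the cryptic unstable transcripts, are its best known non-coding targets, whereas many SUTs are made by the mRNA 3′ end machinery and decay in the cytoplasm. XUTs are non-coding RNAs that accumulate without the cytoplasmic exonuclease Xrn1, and many of them cover the same strand as a SUT.

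CRAC, in which a tagged protein is cross-linked to RNA with UV light and the bound RNA is sequenced, was performed on Nab3 and on Rpo21, the largest subunit of Pol II. Cells were the laboratory strain BY4741 with the tagged protein, sampled at 0 min in glucose and then up to 45 min (Nab3) or 20 min (Pol II) after transfer to medium without glucose, in 2 time-courses for each protein, or to medium with glucose, in 1 control time-course for each. In the anchor-away strain HHY168 (tor1-1, fpr1::NAT, RPL13A-2xFKBP12) Nab3 carried an FRB tag, by which rapamycin ties it to a ribosomal protein and draws it out of the nucleus. Pol II was followed there without glucose in 2 cultures with rapamycin and 2 with the solvent ethanol, called no rapamycin. Rapamycin was added 1 h before the transfer and kept in the medium without glucose, so it was present at 0 min. Every anchor-away culture, with or without rapamycin, carries tor1-1 and fpr1::NAT. A strain with PMA1-2xFKBP12 as the anchor and no FRB tag on Nab3 had 1 library with rapamycin and 1 without at each of 0 and 14 min. Total RNA of BY4741 was sequenced in 1 library at each time without glucose, and Nab3 was also cross-linked in glucose with 2 irradiation devices, the Megatron (2 libraries) and the Vari-X-linker (1 library).

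The values are FPKM, reads per kilobase of feature and library size, which are comparable between features of different length and were rescaled to one sum per library. They are relative to the rest of the library, so an absolute change cannot be told apart from one in other RNAs. Reads on features ranged over 53809 to 934486 in the Nab3 time-courses, over 25776 to 836241 for Pol II and over 7557041 to 17997459 for RNA-Seq. The Vari-X-linker library held 10350 reads and reached 186 SUTs, against 468 to 789 SUTs in the other Nab3 libraries, and its single values are not used. Between 265 and 791 SUTs had a read in a Pol II library and 719 to 803 in an RNA-Seq library. Time-courses and cultures are numbered in the labels but not described further. The tests over time took single libraries as observations, and those of 1 time-course share a culture, so their p-values rest mostly on the spread between libraries within a culture. Rapamycin was tested on 1 mean per culture and Nab3 over Pol II on 1 library per time-course. Time was grouped into early (1 to 4 min), middle (8 to 10 min) and late (14 to 51 min) windows. A SUT was tested only where it was above 0 in every library of a comparison, which 511 SUTs were in at least 1 comparison and 336 in none.

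Transcribed sequence is shown for 6 SUTs on which the results turn, as the 100 bases of each with the most matches to the Nab3 motifs, read on the transcribed strand of the yeast R64 genome (RefSeq) and outside any gene's untranslated regions. Capitals mark the motifs CTTG and TCTT, the DNA letters of CUUG and UCUU, which can overlap as TCTTG. SUT503 (chrV:15841-15940, minus strand, upstream of DLD3 on the other strand) had the most Nab3, SUT153 (chrVIII:122889-122988, plus strand, opposite the coding part of SOD2) and SUT829 (chrXVI:644816-644915, minus strand, opposite the coding part of VMA13) had more Pol II once Nab3 was removed, SUT388 (chrXV:1004346-1004445, plus strand) fell without glucose, SUT060 (chrIV:723191-723290, plus strand, opposite the coding part of YCF1) rose, and SUT307 (chrXIII:511946-512045, plus strand) had much Pol II and little Nab3.
SUT503: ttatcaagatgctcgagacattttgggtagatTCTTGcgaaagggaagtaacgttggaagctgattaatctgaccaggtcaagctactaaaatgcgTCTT
SUT153: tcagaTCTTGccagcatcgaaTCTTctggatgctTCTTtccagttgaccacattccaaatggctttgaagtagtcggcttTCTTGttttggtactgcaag
SUT829: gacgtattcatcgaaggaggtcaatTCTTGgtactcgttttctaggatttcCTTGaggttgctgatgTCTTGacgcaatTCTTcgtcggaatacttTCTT
SUT388: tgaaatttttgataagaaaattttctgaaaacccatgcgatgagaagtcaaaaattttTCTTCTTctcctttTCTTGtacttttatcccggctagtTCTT
SUT060: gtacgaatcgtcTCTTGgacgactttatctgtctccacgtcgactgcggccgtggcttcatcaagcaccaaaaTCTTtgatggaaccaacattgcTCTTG
SUT307: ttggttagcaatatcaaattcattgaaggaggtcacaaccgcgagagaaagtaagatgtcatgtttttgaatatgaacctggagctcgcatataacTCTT
These windows held 3, 6, 7, 5, 5 and 1 matches. Of 7657 windows of 100 bases tiled over the SUTs, 62.2% held at least 1 match, 14.1% at least 3, 1.82% at least 5, 0.575% at least 6 and 0.131% at least 7. The 6 windows were chosen for the most matches and the tiled ones were not, so these shares do not measure how unusual the 6 are. A match describes these letters and is no measured binding site.

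SUTs were 33 to 4913 bases long, with a median of 745 bases, and lay on all 16 chromosomes. Antisense SUTs were longer than other SUTs, with medians of 957 and 545 bases, and 221 of the 484 lay wholly inside the gene on the other strand. In all, 423 SUTs, 215 of them antisense and 208 other, began within 500 bases of the start of a gene on the other strand, the arrangement of a divergent promoter. On their own strand 532 SUTs overlapped an XUT, 193 a CUT and 71 a protein-coding feature, while 594 had none of a protein-coding feature, a CUT or a stable RNA there. A read in a shared stretch was counted on each feature that covers it: of the 251 pairs with the SUT wholly inside an XUT, 0 had more reads on the SUT in any library. SUT and XUT values are thus partly the same reads.

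CTTG and TCTT occurred at 12.0 per kb on the transcribed strand of SUTs and 10.5 per kb on the reverse strand, and 808 SUTs held at least 1. CUTs had 19.4 and 9.35 per kb, XUTs 12.8 and 10.3, and protein-coding features 8.79 and 17.1. The antisense SUTs stood at 12.9 and 9.87 per kb and the other SUTs at 10.2 and 11.9 per kb, so that matches lay more on the transcribed strand in the antisense SUTs and more on the reverse strand in the other SUTs. The Nrd1 motifs GTAA and GTAG had 8.37 per kb on SUTs, against 9.14 on CUTs and 5.71 on protein-coding features.

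In glucose, SUTs had a median Nab3 level of 6.07 FPKM over the 3 libraries at 0 min (quartiles 1.63 and 17.9), against 47.3 in CUTs, 5.30 in XUTs and 1.99 in protein-coding features. Antisense and other SUTs had medians of 6.06 and 6.09 FPKM. The median Pol II level was 5.85 FPKM in SUTs, 13.2 in CUTs, 4.43 in XUTs and 10.7 in protein-coding features. In total RNA the order was another: SUTs had a median of 1.29 FPKM, CUTs 0.872, XUTs 0.918 and protein-coding features 9.13. Across the 847 SUTs the log2 levels of Nab3 and Pol II had a Pearson's r of 0.66, Pol II and RNA-Seq 0.40, and Nab3 and RNA-Seq 0.21, as a description over SUTs, which share libraries and are not independent replicates.

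In the median, an antisense SUT had a higher Nab3 level than the gene opposite it and a lower RNA level, with a wide spread. The log2 ratio of the level of the SUT to that of its gene had a median of 1.02 for Nab3 (quartiles -0.62 and 2.73), -0.34 for Pol II (-1.30 and 0.85) and -1.64 for RNA-Seq (-2.92 and -0.07) over 484 SUTs. Opposite strands thus had distinct values in each assay, although the strand setting of the read counting is not given in the sources used here.

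The 5 SUTs with the most Nab3 held both kinds, SUT708 and SUT222 being antisense and SUT503, SUT535 and SUT709 other SUTs. SUT503 (chrV:15773-15981, minus strand, 209 bases), whose start lies 209 bases from that of DLD3, a D-2-hydroxyglutarate dehydrogenase gene, had 1668 and 1578 FPKM in the no glucose time-courses at 0 min and 1353 in the control. SUT535 (chrVII:94482-94667, minus strand) had 810 and 814 FPKM, and 827 in the control. SUT708, antisense to YLR349W, had 565 and 788 FPKM, and 457 in the control. These 3 kept their place ahead of SUT709 (316, 312 and 390 FPKM) in every 0 min library, whereas SUT709 and SUT222 (257, 124 and 268 FPKM) were closer to each other. The Megatron libraries gave SUT503 1762 and 2458 FPKM, and across SUTs the log2 levels of the Megatron and of Nab3 at 0 min had an r of 0.94.

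Pol II was highest on SUT298 (chrXIII:297122-297194, plus strand), 73 bases that end 83 bases before snR78, a small nucleolar RNA. It had 930 and 907 FPKM in the no glucose time-courses and 746 in the control at 0 min, with 63, 21 and 63 reads. SUT503 (165, 196 and 161 FPKM) and SUT388 (176, 92.2 and 133 FPKM) came next, with overlapping ranges of FPKM. In total RNA the leading SUTs lay close before a gene on their own strand. SUT723 (43.7 FPKM) ends 7 bases before GLO1, the glyoxalase I gene, SUT143 (36.8 FPKM) adjoins TNA1, the nicotinic acid permease gene, SUT645 (22.5 FPKM) ends 45 bases before SOD1, the cytosolic superoxide dismutase gene, and SUT217 (17.8 FPKM) overlaps ADO1, the adenosine kinase gene, by 15.9%. SUT723 was listed at 0 FPKM of Pol II in the 3 libraries at 0 min. In all, 134 SUTs (15.8%) overlapped or lay within 50 bases of a protein-coding feature or snoRNA on the same strand. Whether reads of these genes are part of the values of such SUTs was not tested. SUT388 was the only one of the 5 leading SUTs of total RNA with a gap of 666 bases to the next such gene (18.3 FPKM).

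Nab3 over Pol II in glucose shows how much Nab3 a SUT bound for the Pol II on it, from 3 libraries each. Of 391 SUTs tested, Nab3 was higher relative to Pol II on 124 and lower on 40, against 22.4% of 6067 features higher and 42.8% lower. The median log2 ratio was 0.42 in SUTs, beside -0.79 over all features tested, 2.01 in CUTs, 0.85 in XUTs and -1.65 in protein-coding features. Of antisense SUTs 87 were higher and 25 lower of 244, and of other SUTs 37 were higher and 15 lower of 147. Both assays were scaled to the same total, so a ratio is relative to that total. With the protein-coding features set to one median instead, 288 SUTs were higher and 3 lower. The share over all features was not taken at that scaling, so these counts have no background beside them. The count of 164 ranged from 85 without the control to 259 without no glucose time-course 2.

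The 2 largest ratios belonged to antisense SUTs. SUT202, opposite ASG7, which acts on the mating pheromone pathway, had 60.7, 45.5 and 80.0 FPKM of Nab3 and 1.62, 4.74 and 3.90 FPKM of Pol II in the no glucose time-courses and the control, a log2 ratio of 3.87 (SE 0.44, limma adjusted p = 7.16e-05). SUT037, opposite YIH1, an inhibitor of the kinase Gcn2, had the same ratio of 3.87. SUT153, whose window is printed above, had 84.6, 87.3 and 92.3 FPKM of Nab3 and 12.7, 2.96 and 7.31 FPKM of Pol II, a log2 ratio of 3.54. The groups did not overlap for any of these, which was a condition for naming them. SUT708, SUT503, SUT251, SUT625 and SUT325, the last opposite SLZ1, followed at 3.19, 3.13, 2.95, 2.93 and 2.91. Pol II reads at 0 min of no glucose time-courses 1 and 2 were 1 and 1 on SUT202 and on SUT625. They were 3 and 1 on SUT037, 25 and 2 on SUT153, 18 and 1 on SUT251 and 9 and 1 on SUT325. SUT708 (31 and 6) and SUT503 (32 and 13) had more. Ratios from so few reads depend on the pseudocount.

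At the other end stood SUT307 (393 bases, 3 of them shared with NCW1, a cell wall protein gene, on the same strand). It had 5.01, 8.25 and 2.29 FPKM of Nab3 and 121, 88.3 and 139 FPKM of Pol II, a log2 ratio of -4.34 (SE 0.46, limma adjusted p = 7.16e-05), and held 2.54 motifs per kb. SUT265 (-2.72) and SUT298 (-2.68) came next, and both were lower in Nab3 under each scaling. At 0 min of no glucose time-courses 1 and 2, Nab3 had 2 and 3 reads on SUT307 and 1 and 2 on SUT265. SUT298 had 10 and 8. SUT298 held no Nab3 motif. SUT725, SUT103, SUT581, SUT344 and SUT406 had ratios of -2.25 to -1.98 and lost their call with the protein-coding features set to one median (-0.71 to -0.44). SUT103 had 8 and 8 Nab3 reads in those 2 libraries. The others had 1 or 2 in each. Across the 391 SUTs the log2 ratio had an r of 0.40 and a Spearman's rho of 0.38 with the motif density, 0.21 and 0.18 with GC content, -0.12 and -0.14 with log2 length, and an r of 0.04 with the share of length opposite a gene, as descriptions over SUTs, which share libraries.

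**Figure D1:**
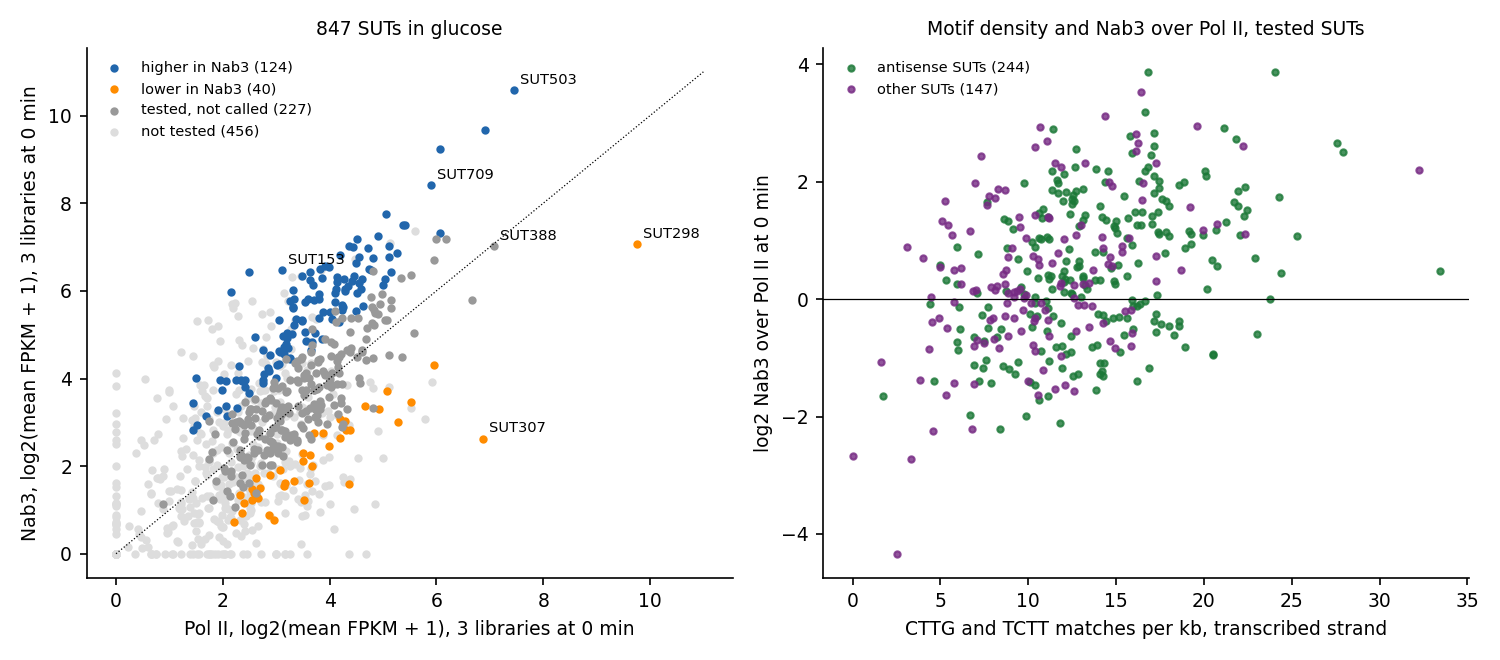
Left, mean Nab3 level against mean Pol II level at 0 min for 847 SUTs, both as log2(FPKM + 1) over 3 libraries, with the dotted line at equal levels and colours for the 124 SUTs higher in Nab3, the 40 lower, the 227 tested without a call and the 456 not tested. Right, log2 ratio of Nab3 over Pol II against the number of CTTG and TCTT matches per kb on the transcribed strand for 244 antisense and 147 other SUTs, which rise together loosely (r = 0.40).

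Reads on SUTs were fewer relative to those on protein-coding features after the removal of glucose in both CRAC assays. For Nab3, SUTs had 203, 129, 127 and 141 reads per 1000 protein-coding reads at 0 min and in the early, middle and late windows of time-course 1, and 161, 112, 112 and 113 in time-course 2. The glucose control had 202, 216, 199 and 193. The late window was thus lower by 0.53 and 0.52 on the log2 scale in the time-courses without glucose, and the control changed by -0.07. For SUTs with no protein-coding feature, CUT or stable RNA on their strand the changes were -0.40 and -0.22, and -0.08 in the control. The control had 1 time-course, so this difference has no test.

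Antisense and other SUTs were both lower late. In Nab3 time-course 1 antisense SUTs had 88.4 per 1000 protein-coding reads in the late window and 130 at 0 min, and other SUTs 52.6 and 73.3. In time-course 2 antisense SUTs had 69.0 late and 95.7 at 0 min, and other SUTs 43.7 and 65.7. For comparison, CUTs had 685 late and 1110 at 0 min in time-course 1 and 461 late and 980 at 0 min in time-course 2, so their log2 changes (-0.70 and -1.09) exceeded those of SUTs in both time-courses. As a share of all feature reads SUTs held 5.10% (95% Wilson interval 5.04% to 5.16%) in the late window and 5.58% (5.49% to 5.68%) at 0 min of time-course 1, and 4.57% (4.53% to 4.61%) and 4.94% (4.84% to 5.04%) in time-course 2. On that scale, which also counts reads on other classes, the mean late change was -0.12. Why it was smaller than the change per protein-coding read was not tested. The 45 min library of time-course 2 was lowest, with 76.4 per 1000, against 128 and 129 at 16 and 28 min.

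For Pol II, SUTs had 37.6, 23.5, 28.2 and 28.3 reads per 1000 protein-coding reads at 0 min and in the early, middle and late windows of time-course 1, 31.9, 24.8, 26.7 and 27.9 in time-course 2, and 33.0, 34.7, 31.2 and 33.9 in the control. Both time-courses were lowest in the early window. CUTs had in Pol II 110 reads per 1000 in the late window and 108 at 0 min of time-course 1, and 110 and 95.7 in time-course 2. As a share of all feature reads the Pol II time-courses went opposite ways in the early and the late window. Time-course 1 had 2.58% at 0 min, 1.53% early and 1.75% late, and time-course 2 had 1.23%, 1.55% and 1.56%. In total RNA SUTs had 5.27, 4.23, 4.80, 4.74, 5.15, 7.05 and 7.67 reads per 1000 protein-coding reads at 0, 1, 4, 8, 14, 30 and 40 min, so the share was lowest at 1 min and highest at 40 min. Each time had 1 library, with no replicate check.

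**Figure D2:**
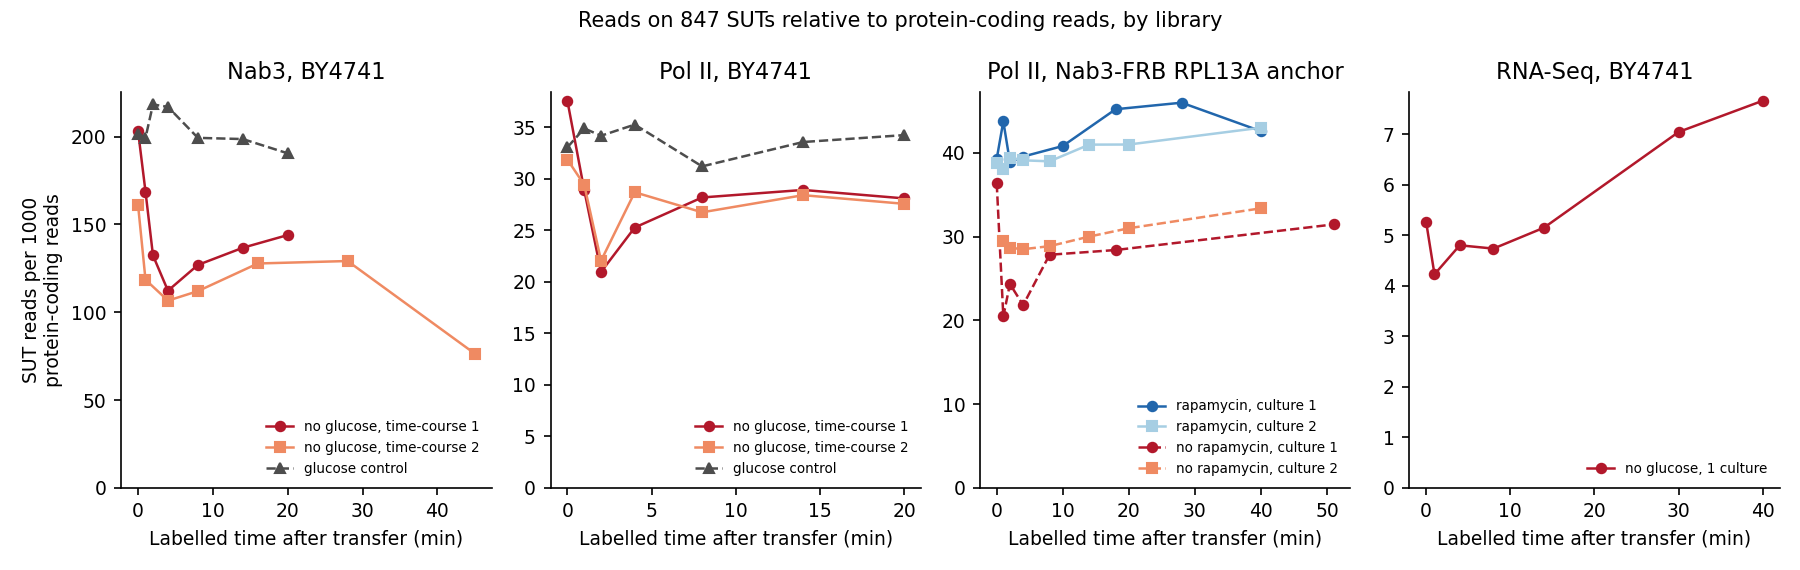
Reads on the 847 SUTs per 1000 reads on protein-coding features in each library against labelled time in min, for Nab3, Pol II, the RPL13A anchor strain and RNA-Seq, with 1 line per time-course or culture. Lines without glucose lie below the glucose control from 1 min on in Nab3 and Pol II, and after 0 min the 2 cultures with rapamycin (38.1 to 46.0) stay above both cultures without it (20.5 to 33.4).

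Single SUTs were tested in the time-courses without glucose by window against 0 min, with the time-course as a block. Nab3 was higher in the late window on 20 SUTs and lower on 63 of 305 tested, against 11% and 18.9% of 4561 features. The median log2 change was -0.46 in SUTs, beside -0.21 over all features tested, -0.86 in CUTs, -0.48 in XUTs and 0.07 in protein-coding features. Of antisense SUTs 10 were higher and 44 lower of 195, and of other SUTs 10 were higher and 19 lower of 110. All 83 had the same direction in both time-courses, but the calls came from these time-courses, so this is no separate check. With libraries set to one median 50 SUTs were higher and 46 lower, and the share over all features was not taken at that scaling. Without time-course 1 the count of 83 was 36 and without time-course 2 it was 14. Earlier windows had fewer calls: 3 SUTs were higher and 13 lower in the middle window (3.14% and 5.24% of features), and 0 of 305 in the early window (0.263% and 0.11%), where 44 (14.4%) had an unadjusted limma p under 0.05, against 17.3% of all features, and voom called 5.

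Nab3 rose late without glucose on SUTs opposite genes, such as SUT044, SUT060 and SUT069, and on SUTs in other places, such as SUT826. SUT044 (chrIV:314921-316961, plus strand) is antisense to MDH3, the peroxisomal malate dehydrogenase gene, over 61.7% of its length. It had 7.72, 3.51, 2.07, 6.80, 27.3, 71.1 and 96.0 FPKM at 0, 1, 2, 4, 8, 14 and 20 min of time-course 1 and 14.3, 25.1, 36.9, 104, 135, 137 and 75.7 FPKM at 0, 1, 4, 8, 16, 28 and 45 min of time-course 2. The control stayed between 6.97 and 28.4 FPKM. All late libraries without glucose were above every library of the control, and the log2 change was 2.96 (SE 0.56, limma adjusted p = 0.00128). MDH3 itself changed by 2.36 in Nab3 (adjusted p = 0.00228).

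SUT060 (chrIV:722295-726503, plus strand, 4209 bases) lies opposite YCF1, the gene of a vacuolar transporter of glutathione conjugates, over 84.7% of its length. Nab3 on it was 5.85, 3.40, 2.50, 7.92, 28.6, 51.3 and 52.7 FPKM in time-course 1, 9.25, 17.1, 35.6, 50.4, 60.7, 63.3 and 21.5 FPKM in time-course 2, and 0 to 10.5 FPKM in the control, a log2 change of 2.42 (SE 0.62, limma adjusted p = 0.00819). The late libraries exceeded the control throughout. Without time-course 1 it was 2.12 with an adjusted p of 0.0942. YCF1 had a Nab3 change of 0.12 (adjusted p = 0.890).

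SUT069 (chrIV:1162355-1165899, plus strand) covers HXT3, a low-affinity glucose transporter gene, with 55.2% of its length. Its Nab3 level was 36.3 and 61.5 FPKM late and 16.4 at 0 min in time-course 1, and 75.5, 78.4 and 26.7 late and 16.2 at 0 min in time-course 2, with 6.42 to 13.0 FPKM in the control. The log2 change was 1.53 (SE 0.50, limma adjusted p = 0.0280), and that of HXT3 was 1.69 (adjusted p = 0.00475). SUT069 lost its call without either time-course (1.69 and 1.47, adjusted p = 0.156 and 0.151).

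SUT826 (chrXVI:614578-615282, minus strand), which overlaps ATH1, the acid trehalase gene of the other strand, over 1.28% of its length, had 103 and 153 FPKM late and 25.1 at 0 min in time-course 1, and 193, 269 and 143 late and 30.7 at 0 min in time-course 2, against 12.1 to 40.8 FPKM in the control, a log2 change of 2.37 (SE 0.62, limma adjusted p = 0.00859; 2.28 and 0.141 without time-course 2). SUT736, opposite MGL2, a monoacylglycerol lipase gene, SUT735 and SUT004 had changes of 2.55, 2.34 and 2.15, with adjusted p of 0.0582, 0.192 and 0.198 without time-course 2, time-course 2 and time-course 1.

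The largest fitted increase was that of SUT225 (chrXI:92647-93359, plus strand), opposite MTR2, an mRNA export factor gene, with 33.1 and 57.1 FPKM late and 2.76 at 0 min in time-course 1 and 20.1, 118 and 135 late and 1.52 at 0 min in time-course 2. It rested on 2 and 1 reads at 0 min, so the ratio was 17.1 (95% counting interval 4.59 to 143) and 65.7 (11.7 to 2602), and the fitted log2 change of 4.20 (adjusted p = 0.000514) depends on the pseudocount. Its RNA-Seq level was 7.60 FPKM at 40 min and 0.432 at 0 min. SUT791 (chrXV:836520-837240, minus strand) had 1 read at 0 min in each time-course and ratios of 12.9 (2.17 to 525) and 13.7 (2.39 to 546). In total RNA it had 2.13, 1.67, 1.67, 4.61, 8.18, 18.7 and 21.9 FPKM from 0 to 40 min, and it ends 6 bases before TPO4, a polyamine transporter gene on the same strand. Few Nab3 reads at 0 min also limit SUT736, SUT735 and SUT004. SUT736 had 1 and 5 in time-courses 1 and 2, and a ratio of 15.6 (2.64 to 630) in time-course 1. SUT735 had 25 and 3, and a ratio of 10.4 (3.49 to 50.7) in time-course 2. SUT004 had 3 and 9, and a ratio of 12.1 (4.03 to 59.9) in time-course 1.

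Nab3 fell most on SUT388 (chrXV:1003958-1004470, plus strand, 513 bases, no gene on the other strand). It was 80.6, 97.6, 103, 32.5, 23.5, 14.1 and 13.6 FPKM in time-course 1, 200.2, 134, 83.3, 36.4, 8.37, 4.03 and 4.17 FPKM in time-course 2, and 86.1 to 139 FPKM in the control. Both time-courses were below every control library from 4 min on. The log2 change was -3.86 (SE 0.58, limma adjusted p = 0.00029) and -2.45 (adjusted p = 0.0816) without time-course 2. SUT709 (chrXII:921643-922387, minus strand), which shares 13.0% of its length with BDF1, a bromodomain protein gene of the same strand, was 316, 240, 164, 134, 48.5, 42.6 and 57.2 FPKM in time-course 1, 312, 212, 98.1, 49.4, 72.0, 26.6 and 23.0 FPKM in time-course 2, and 323 to 489 FPKM in the control, a log2 change of -2.90 (SE 0.47, limma adjusted p = 0.000442). Every library after 0 min was below the control.

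Some falling SUTs lay before or beside the start of a gene. SUT239 (chrXI:514138-514706, plus strand) ends 15 bases before GAP1, the general amino acid permease gene, and had 6.38 and 14.5 FPKM late and 70.9 at 0 min in time-course 1, and 5.03, 5.81 and 5.64 late and 74.1 at 0 min in time-course 2, against 55.3 to 95.0 in the control, a log2 change of -3.17 (SE 0.41, limma adjusted p = 0.000104; -2.75 and 0.0514 without time-course 2). SUT834 starts 285 bases from CLB2, a mitotic cyclin gene, on the other strand and changed by -3.10, and SUT618 starts 152 bases from MNN5, a mannosyltransferase gene, and changed by -2.95. SUT159 and SUT395, antisense to RPP1, a subunit gene of RNase P, and CIN2, a tubulin folding factor gene, changed by -3.15 and -3.09, and SUT687, antisense to YLR030W, by -3.05. SUT159 and SUT687 lost their call without time-course 2 (adjusted p = 0.162 and 0.0582).

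The control had 1 time-course, so subtracting it gives values set over the spread between libraries, and no test between cultures. On that basis the difference in Nab3 change between no glucose and the control passed the threshold upward on 2 of 291 SUTs (SUT225 and SUT791) and downward on 6, against 1.23% and 2.48% of 4313 features. The downward ones included SUT388 (-4.26, SE 0.94), SUT239 (-3.20), SUT618 (-2.96) and SUT709 (-2.81). The count of 8 was 10 without time-course 1 and 1 without time-course 2, and 39 with voom. SUT044 had a difference of 2.93 that did not pass.

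Pol II depth left 51 SUTs to test. In the late window Pol II was higher on 2 and lower on 17, against 6.64% and 31.4% of 2890 features. The median log2 change was -0.52 in SUTs and -0.66 over all features tested. Of antisense SUTs 2 were higher and 10 lower of 32, and of other SUTs 0 were higher and 7 lower of 19. All 19 SUTs called had the same direction in both time-courses, from which the calls were made, so this is again no separate check. With libraries set to one median, 5 were higher and 4 lower, again without a share over all features. The count of 19 was 0 without time-course 1 and 8 without time-course 2. In the middle window 0 SUTs were higher and 10 lower (2.66% and 19.1% of features), and 0 of 51 were called early (0% in each direction), where 9 (17.6%) had an unadjusted limma p under 0.05, against 11.3% of all features, and voom called 1.

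SUT388 led the decreases in Pol II as well. It had 176, 160, 75.5, 24.3, 28.3, 7.86 and 9.80 FPKM in time-course 1, 92.2, 122, 46.8, 95.2, 8.78, 17.8 and 12.9 FPKM in time-course 2 and 107 to 142 FPKM in the control, a log2 change of -3.35 (SE 0.64, limma adjusted p = 0.000889; -2.53 and 0.0644 without time-course 1). Its RNA-Seq level was 18.3, 18.1, 17.5, 12.0, 12.5, 3.51 and 3.03 FPKM from 0 to 40 min, low in the last 2 libraries. Nab3, Pol II and RNA on this SUT were thus all lower late than at 0 min.

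SUT257, antisense to RFU1, a regulator of ubiquitin chains, had 5.90 and 1.64 FPKM of Pol II late and 41.0 at 0 min in time-course 1, 8.88 and 1.62 late and 30.8 at 0 min in time-course 2, and 15.3 to 34.1 in the control, a log2 change of -2.97 (SE 0.61, limma adjusted p = 0.00149). The late libraries held 1 to 3 reads each, so the ratio was 0.0705 (95% counting interval 0.0217 to 0.179) and 0.136 (0.0311 to 0.472). Its Nab3 level was 7.08 and 7.44 FPKM late and 74.0 at 0 min in time-course 1, but was 0 in the 45 min library of time-course 2 and was not tested. SUT298, before snR78, had 166 and 161 FPKM late and 930 at 0 min, and 291 and 250 late and 907 at 0 min, against 584 to 875 in the control, a log2 change of -2.12 (SE 0.40, limma adjusted p = 0.000874). Without time-course 1 neither passed (adjusted p = 0.111 and 0.141).

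Of the rest, SUT034, antisense to TAF2, a TFIID subunit gene, changed by -2.26, SUT349 by -2.06 and SUT644 by -2.00, each without a call when either time-course was left out. SUT060 was one of the 2 increases, with 14.4 and 16.5 FPKM late and 5.12 at 0 min in time-course 1, 7.21 and 5.91 late and 0.751 at 0 min in time-course 2, and 2.18 to 5.99 in the control, a log2 change of 1.76 (SE 0.45, limma adjusted p = 0.00625; 2.11 and 1.42 with one time-course, adjusted p = 0.0822 and 0.224). Time-course 2 had 1 read on it at 0 min, and its ratio was 8.50 (95% counting interval 1.39 to 349). YCF1, opposite SUT060, fell in Pol II (log2 change -1.16, adjusted p = 0.0318), and the RNA of SUT060 was 0.964 FPKM at 0 min and 2.71, 4.38 and 3.71 FPKM at 14, 30 and 40 min. The other increase was SUT069, opposite HXT3 (1.50, SE 0.53, limma adjusted p = 0.0356). It also had 1 Pol II read at 0 min of time-course 2, and its ratio there was 6.46 (95% counting interval 1.03 to 268).

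For Pol II the control was again 1 time-course, with no test between cultures. Over the spread between libraries the difference from it passed the threshold on 5 of 51 SUTs, 1 upward (SUT060, 2.47) and 4 downward (SUT257, -3.72, SUT388, -3.20, SUT298, -2.24, and SUT779, antisense to RGS2, -2.18), beside 1.98% and 10.7% of 2881 features. That count was 0 without time-course 1 and 11 without time-course 2. SUT709 had a difference of -2.36 that did not pass.

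**Figure D3:**
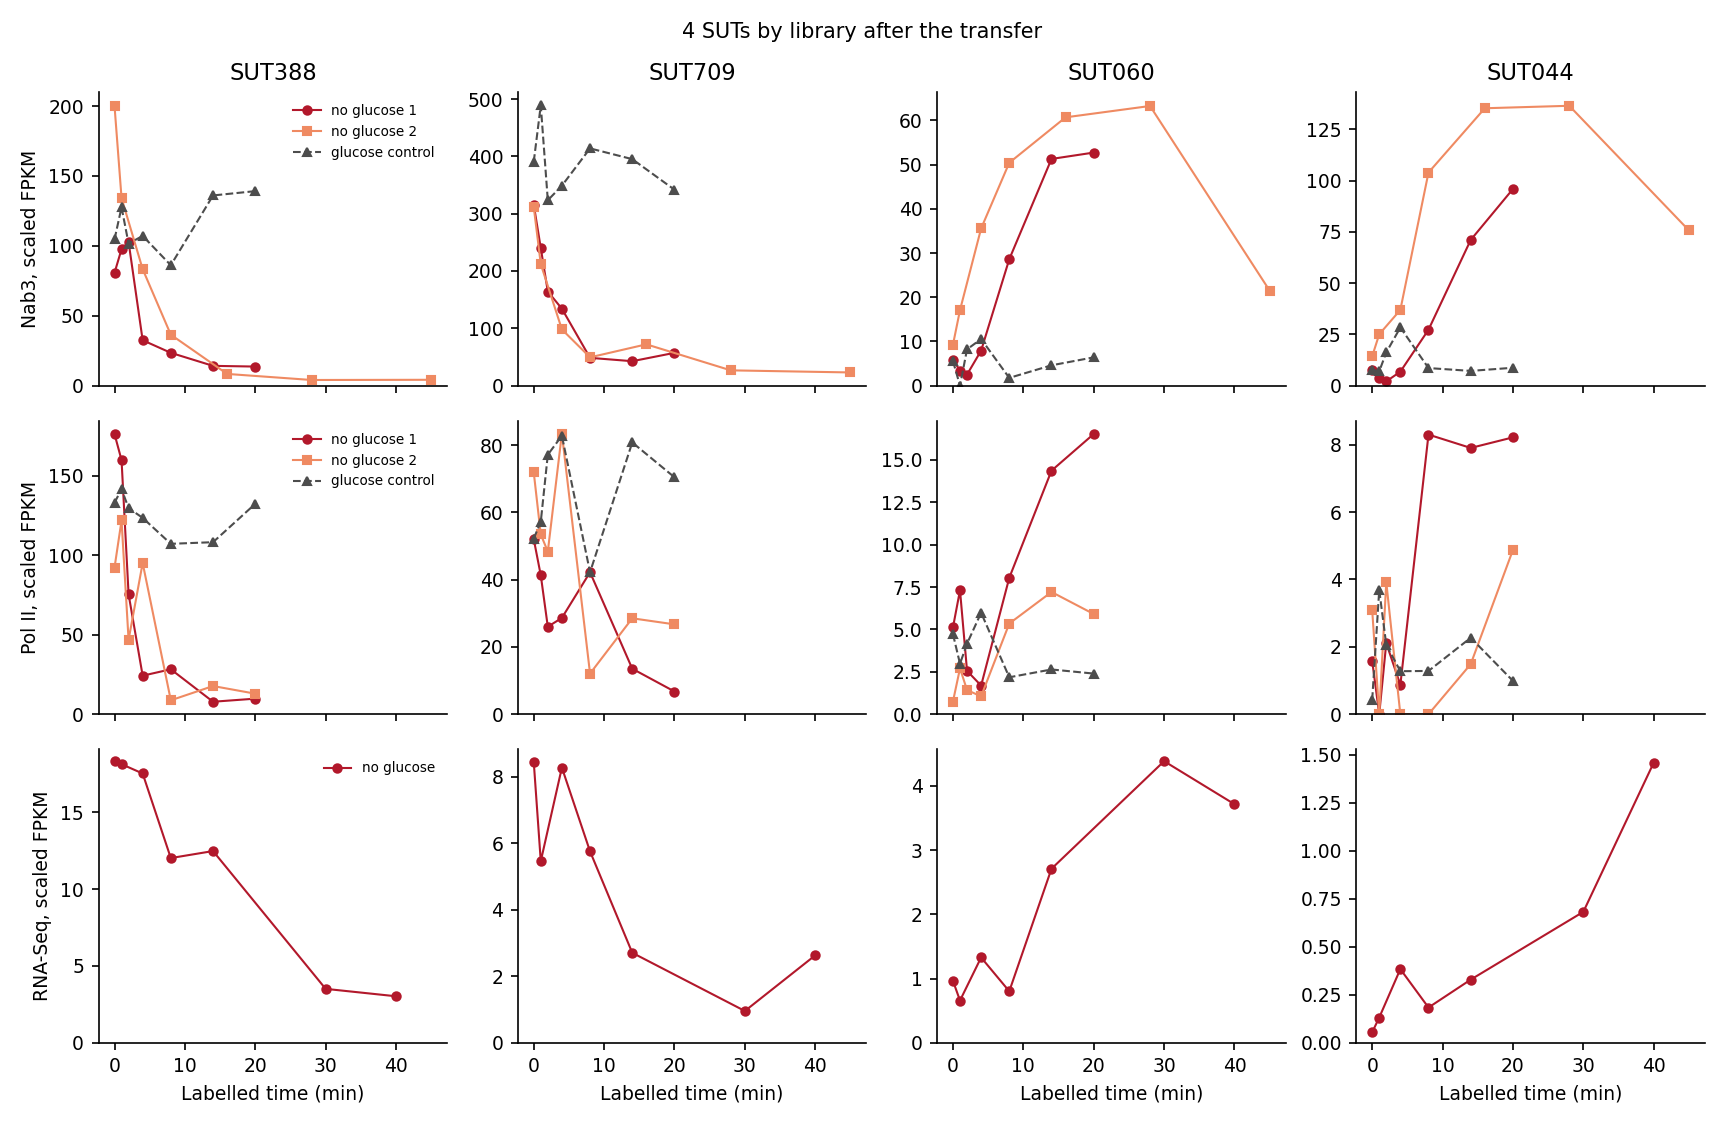
FPKM, scaled to one sum per library, of SUT388, SUT709, SUT060 and SUT044 against labelled time in min, for Nab3, Pol II and RNA-Seq, with a line for each time-course without glucose and for the glucose control. SUT388 and SUT709 fall in Nab3 and Pol II while the control does not, and SUT060 and SUT044 rise in Nab3.

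Nab3 and Pol II had the same sign of change on most SUTs tested in both. Of 39 such SUTs, 9 passed the threshold in both late comparisons, all in the same direction, and 0 in opposite directions. Of 1754 features of all kinds tested in both, 219 passed in the same direction (12.5%) and 7 in opposite directions (0.399%). SUT060 and SUT069 were higher, and SUT388, SUT709, SUT746, SUT255, SUT779, SUT222 and SUT632 lower. By sign alone 23 SUTs were lower in both (59.0%, against 41.4% of all features), 7 higher in both (17.9%, against 26.7%) and 9 mixed (23.1%, against 31.8%), with an r of 0.82 and a rho of 0.72 between the log2 changes, as a description over SUTs, whose assays used separate cultures. SUT746, antisense to MER1, a meiotic splicing factor gene, starts 167 bases from SSB2, a ribosome-associated Hsp70 gene, and changed by -2.36 in Nab3 and -2.24 in Pol II. SUT255, antisense to REX2, an RNA exonuclease gene, starts 359 bases from SHM2, a serine hydroxymethyltransferase gene, and changed by -2.33 and -2.32.

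**Figure D4:**
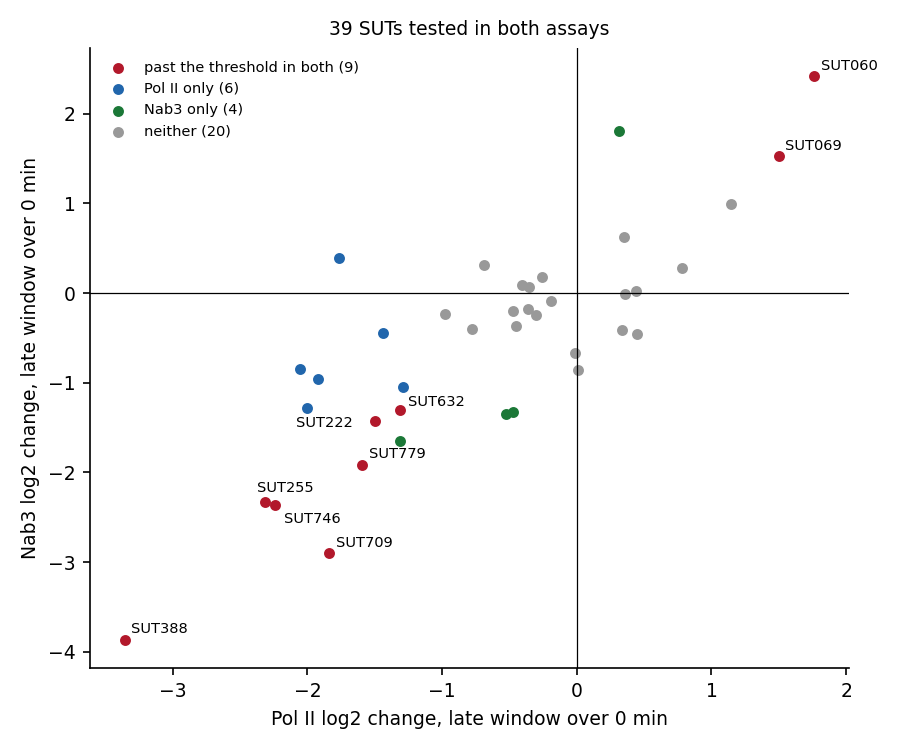
Log2 change of Nab3 against that of Pol II, late window over 0 min without glucose, for the 39 SUTs tested in both assays, coloured by whether both (9), Pol II alone (6), Nab3 alone (4) or neither (20) passed the threshold. The 9 named SUTs lie in the lower left or the upper right.

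The change of a SUT was set beside that of the gene opposite it and of the gene at its divergent start. The Nab3 log2 changes of antisense SUTs and their opposite genes had an r of 0.14 over 62 pairs, and those of SUTs and divergent genes 0.37 over 72 pairs. For Pol II these were 0.13 over 9 pairs and 0.64 over 17 pairs. The pairs share libraries, and the difference between the coefficients was not tested. In total RNA, 701 SUTs with a mean of at least 10 reads had a median log2 change of -0.12, -0.01, -0.09, -0.12, 0.10 and -0.03 at 1, 4, 8, 14, 30 and 40 min, and 5986 protein-coding features had 0.08, 0.07, -0.03, -0.27, -0.27 and -0.52 at the same times. The antisense SUTs among them stood at -0.11 and the other SUTs at 0.14 at 40 min.

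Pol II on SUTs without glucose was higher where Nab3 had been drawn out of the nucleus. In the RPL13A anchor strain SUTs had 39.3, 40.2, 40.8 and 44.3 reads per 1000 protein-coding reads at 0 min and in the early, middle and late windows of rapamycin culture 1, and 38.8, 38.8, 39.0 and 41.8 in rapamycin culture 2. No rapamycin culture 1 had 36.4, 21.4, 27.8 and 29.5, and no rapamycin culture 2, without a 0 min column here, had 28.9, 28.9 and 31.4 in the 3 windows. After 0 min the cultures averaged 40.9 with rapamycin and 27.0 without (log2 0.60). All 14 libraries with rapamycin were above all 13 without it, and with 2 cultures each this sum has no test.

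Both kinds of SUT shared the difference, with antisense SUTs at 25.4 with rapamycin and 15.7 without (log2 0.70) and other SUTs at 15.5 and 11.3 (0.46). CUTs had 124 and 85.6 (0.53) and XUTs 71.5 and 44.3 (0.70), and SUTs with no protein-coding feature, CUT or stable RNA on their strand had 23.6 and 16.4 (0.54). In the PMA1 anchor strain, whose Nab3 has no FRB tag, SUTs had 36.0 with rapamycin and 36.0 without at 0 min and 31.7 and 35.2 at 14 min, with 1 library per condition and no test. At 0 min in glucose the RPL13A strain had 39.3 and 38.8 with rapamycin and 36.4 without.

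Of 86 SUTs above 0 in every library, Pol II after the shift was higher with rapamycin on 15 and lower on 0, against 4.62% and 0.11% of 3636 features, in limma on 1 mean per culture. Of the 86, 41 (47.7%) had an unadjusted limma p under 0.05, all higher, against 20.7% of all features, and 77 (89.5%) were positive, against 71.1%. The median log2 difference was 0.71 in SUTs, beside 0.28 over all features tested, 0.69 in CUTs, 0.81 in XUTs and 0.29 in protein-coding features. Antisense SUTs had 12 of 56 higher and other SUTs 3 of 30. With libraries set to one median, 1 (SUT829) was higher and 0 lower, and left-out cultures gave 6 and 5 (rapamycin 1 and 2) and 52 and 56 (no rapamycin 1 and 2). The early window had 18 higher and 0 lower of 164 (3.59% and 0.13% of 5376 features) and the late window 12 and 0 of 194 (1.36% and 0% of 4984 features).

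SUT829 (chrXVI:643546-644978, minus strand), antisense to VMA13, a subunit gene of the vacuolar proton pump, over 92.9% of its length, had the largest difference. It had 106, 91.6, 140, 129, 80.7, 81.8 and 91.7 FPKM of Pol II at 1, 2, 4, 10, 18, 28 and 40 min of rapamycin culture 1 and 64.1, 111, 136, 134, 96.0, 119 and 91.3 FPKM at 1, 2, 4, 8, 14, 20 and 40 min of culture 2. Without rapamycin it had 20.3, 24.8, 7.77, 13.8, 4.60 and 3.42 FPKM in culture 1 and 17.8, 13.2, 23.3, 28.5, 19.2, 12.7 and 7.82 FPKM in culture 2. The libraries did not overlap, and the log2 difference was 2.91 (SE 0.35, limma adjusted p = 0.000778). Already at 0 min it had 119 and 87.7 FPKM with rapamycin and 23.4 without. The PMA1 strain had 35.9 and 29.0 with rapamycin and 29.0 and 23.8 without, at 0 and 14 min. VMA13 had a difference of 0.97 (adjusted p = 0.132).

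SUT153 (chrVIII:121895-124023, plus strand), opposite SOD2, the mitochondrial superoxide dismutase gene, over 42.3% of its length and starting 79 bases from ERG11, a sterol synthesis gene, had 20.2 to 63.6 FPKM in the 14 libraries with rapamycin and 2.56 to 18.1 in the 13 without, with no overlap and a log2 difference of 2.27 (SE 0.39, limma adjusted p = 0.00611). In the PMA1 strain it was 12.9 and 15.7 FPKM with rapamycin and 13.2 and 13.2 without. SUT435, antisense to BDH2, a gene of the butanediol dehydrogenase family, had 15.6 to 51.3 FPKM with rapamycin and 1.88 to 22.2 without, which overlap, and differed by 2.06. BDH2 differed by 1.53 (adjusted p = 0.0480). SUT044, opposite MDH3, had 7.48 to 67.3 and 0.78 to 22.8 FPKM, which overlap, and a difference of 2.40 (SE 0.33, limma adjusted p = 0.0013).

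SUT093, antisense to ICL1, the isocitrate lyase gene of the glyoxylate cycle, had 18.1 to 40.0 FPKM with rapamycin and 3.97 to 15.7 without, which did not overlap, and a difference of 1.69 (limma adjusted p = 0.0115), and ICL1 differed by 1.78. SUT221, antisense to MNN4, a regulator of mannosylphosphorylation, differed by 2.27, SUT246 by 1.87 and SUT749, antisense to MSG5, a MAP kinase phosphatase gene, by 1.73. SUT069 (1.36) and SUT222 (1.55) also passed and were among the SUTs that changed without glucose in both Nab3 and Pol II.

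**Figure D5:**
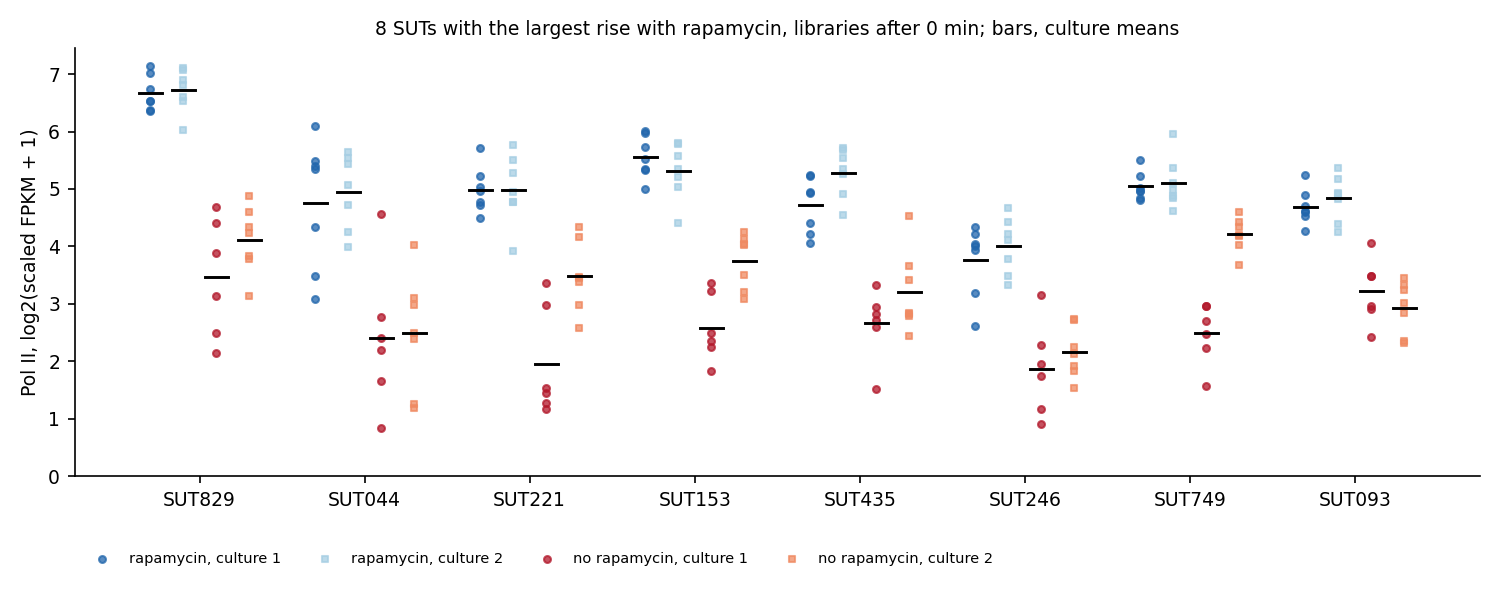
Pol II on 8 SUTs as log2(scaled FPKM + 1) in the RPL13A anchor strain after the shift, with a point per library, the 2 rapamycin cultures left of the 2 no rapamycin cultures, and bars at the culture means. For each SUT both rapamycin means stand above both no rapamycin means, which was a condition for naming it and held for all 15 SUTs called.

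The 15 SUTs that were higher with rapamycin included 14 tested in Nab3 over Pol II, of which 11 were higher in Nab3 and 0 lower, and 14 that shared their strand with an XUT, 7 with a CUT and 0 with a protein-coding feature. Among all 86 SUTs tested with rapamycin, 27 of the 74 tested in Nab3 over Pol II were higher in Nab3 and 9 lower, and 67 shared their strand with an XUT, 40 with a CUT and 3 with a protein-coding feature. Over 74 SUTs tested in both, the rapamycin difference and the log2 ratio of Nab3 over Pol II had an r of 0.49 and a rho of 0.48. With motif density the r was 0.27 over 86 SUTs. Pol II levels in BY4741 and the anchor strain come from separate cultures. SUT503, with the most Nab3, had 51.3 to 282 FPKM of Pol II with rapamycin and 28.4 to 174 without, which overlap.

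SUT719 lies over 67.0% of its length opposite SUR7, a gene of the plasma membrane domains called eisosomes, and is known as an antisense transcript of it. It had 1.85, 0 and 0.85 FPKM of Nab3 and 4.73, 0 and 1.09 FPKM of Pol II in the no glucose time-courses and the control at 0 min, and could not be tested at this depth.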

How the data were processed

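SUTs were followed in 86 of the 88 samples. Another 3 columns matched no label and were not used, 2 samples had no column, and no rapamycin culture 2 had no 0 min column. The authors deposited FPKM values: reads were collapsed by random barcode, aligned to the R64 genome with Novoalign (2.0.4 in the submitters' processing notes) and counted per annotated feature with pyReadCounters, with reads of several places distributed at random. For RNA-Seq the aligner and counter are not given in the sources used here. The deposited annotation adds CUTs, XUTs, SUTs and anti-sense transcripts to the genes, and 5998 of 6005 shared coding spans (99.9%) lie at the same place in the RefSeq R64 genome, from which sequences were read. Its protein-coding features include untranslated regions where mapped (5260 are longer than their coding span), and the antisense split used these full spans. A line of no annotated feature in 5 tables was dropped.

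Each library was rescaled to an FPKM sum of 635450.2, the authors' own sum for the Nab3 time-courses and for the Pol II time-courses of BY4741 without glucose. In all 86 libraries 100% of low values came within 0.1 of a whole number of reads, which gave read numbers for shares and intervals. Changes were tested with limma 3.58.1 (R 4.3.3) on log2(FPKM + 1), so folds of low features are understated, for all features above 0 in every library of the comparison, with Benjamini-Hochberg adjustment over all of them and a threshold of 0.05. Windows were compared with 0 min over single libraries with the time-course as a block, since its libraries come from 1 culture (libraries of one time-course deviated together, median r of 0.23 in Nab3 and 0.07 in Pol II). Rapamycin was tested on 1 mean per culture after 0 min. Nab3 over Pol II used the 3 libraries of each at 0 min. SUT reads per protein-coding read, RNA-Seq (SUTs with a mean of 10 reads or more), PMA1 and Megatron values had no test. Wilson intervals (95%) of shares and exact (Clopper-Pearson) intervals of read ratios cover counting error only.

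SUTs named were the 8 largest increases and decreases past the threshold in the 4 main comparisons that had one direction in both time-courses, in non-overlapping cultures or in all 3 libraries, the 5 highest at 0 min in each assay, SUT719, those that passed in Nab3 and Pol II in opposite directions (0 found), and the genes that antisense SUTs cover. SUTs named for changes in both assays, or beside a result, were added after values were seen. The members and lists were chosen with earlier results of these data known. The fits were tested on simulated data. Alternatives were a pseudocount of 0.1, no filter, a mean FPKM of at least 10, one median per library, other uses of the replicate block, voom, other windows, replicates left out, and SUTs with no same-strand overlap. Python 3.11.15, pandas 2.3.3, scipy 1.17.1 and matplotlib 3.10.9 were used.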

Additional observations from a re-analysis of the deposited data

Results flagged for a closer look

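For 13 values the difference between the late change of a SUT without glucose and that in the glucose control passed the threshold of the limma interaction term, taken over single libraries. In Nab3 it passed upward on 0.687% and downward on 2.06% of 291 SUTs, against 1.23% and 2.48% of 4313 features. In Pol II it passed upward on 1.96% and downward on 7.84% of 51 SUTs, against 1.98% and 10.7% of 2881 features. The shares of SUTs were thus no higher than those of all features. The control was 1 time-course, so between cultures the difference was not tested, and the SE covers the spread between libraries. In Nab3, SUT225 (4.74, SE 1.16) and SUT791 (3.62, SE 0.99) changed upward relative to the control on the log2 scale, each from 1 or 2 reads at 0 min without glucose. Downward differences in Nab3 were those of SUT388 (-4.26, SE 0.94), SUT687 (-3.23, SE 0.79), SUT239 (-3.20, SE 0.67), SUT395 (-3.03, SE 0.67), SUT618 (-2.96, SE 0.64) and SUT709 (-2.81, SE 0.75).

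In Pol II, SUT060 differed upward (2.47, SE 0.72), and SUT257 (-3.72, SE 0.96), SUT388 (-3.20, SE 1.01), SUT298 (-2.24, SE 0.62) and SUT779 (-2.18, SE 0.67) downward. SUT388 was the 1 SUT with such a difference in both assays.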

How the results depend on the processing

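Counts of SUT calls moved with the time-courses or cultures used, the filter, the scaling and the weights. Shares over all features were taken in the main setting alone, so the counts below have no background beside them. Leaving out each time-course or culture in turn gave 0 to 0 (Nab3 middle, 16 in all), 14 to 36 (Nab3 late, 83), 1 to 10 (Nab3 late against the control, 8), 0 to 0 (Pol II middle, 10), 0 to 8 (Pol II late, 19), 0 to 11 (Pol II late against the control, 5), 5 to 56 (rapamycin, 15), 0 to 30 (rapamycin early, 18), 1 to 88 (rapamycin late, 12) and 85 to 259 (Nab3 over Pol II, 164), with 1 sample left in an arm assumed to vary like the rest. Without the filter on low values, which puts more features into the adjustment, the counts were 2 (Nab3 middle), 1 (Nab3 against the control), 14 (Pol II early), 34 (Pol II late), and 5, 0 and 0 (rapamycin, early and late). A mean FPKM of at least 10 gave 3 (Nab3 against the control), 4, 11 and 0 (Pol II middle, late, against the control), and 7, 0 and 0 (rapamycin, early and late). One median per library gave 4, 32 and 16 (Nab3 early, middle, against the control), 5, 9 and 2 (Pol II middle, late, against the control), 1 and 0 (rapamycin, late), and 291 for Nab3 over Pol II over protein-coding features, where SUT034 turned from -1.09 to 0.45. A pseudocount of 0.1 gave 4 (Nab3 against the control). Voom on reads gave 5, 27 and 39 (Nab3 early, middle, against the control) and 1, 3 and 11 (Pol II early, middle, against the control). The cause of these shifts was not tested.

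Without the replicate block Nab3 had 10 calls (middle) and 3 (against the control). The labels do not say that rapamycin and no rapamycin numbers pair (r of 0.11 between same-numbered cultures), and a block on them gave 26, and 28 in the late window. For Nab3 over Pol II the numbers did not pair (r of 0.04 to 0.09), and a block gave 181. Every library with culture as a random effect gave 31 and 34 (rapamycin, late). Chosen after seeing the data, reads pooled per culture and window with voom gave 15, 63 and 158 (Nab3 early, middle, late) and 1 and 2 (Pol II early, middle). SUTs with no same-strand overlap, 594 of the 847, held 46 and 5 (Nab3 late, against the control) and 5, 11 and 2 (Pol II middle, late, against the control) of the calls. They also held 8, 9 and 7 (rapamycin, early, late) and 92 (Nab3 over Pol II). Why they held these parts of the calls was not tested.

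The log2 change in SUT reads per protein-coding read, as the mean of 2 time-courses, was -0.59 (Nab3 early), -0.52 (Nab3 late), -0.52 (Pol II early) and -0.30 (Pol II late). As a share of all feature reads, added after seeing the data, it was -0.23, -0.12, -0.21 and -0.11. On that scale both Pol II values are means of a fall in time-course 1 and a rise in time-course 2. Nab3 late was -0.31 for SUTs with no same-strand overlap and -0.50 without the 50 protein-coding features with most reads. The rapamycin value of 0.60 kept its size under these. Of 725 checks on named SUTs, 572 kept direction and call, 152 kept the direction alone and 1 turned. Depth limits Pol II most, where 51 SUTs could be tested.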
